A study of Mus musculus with 12 samples.

Results

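Sodium proton exchangers of the plasma membrane and their best known scaffold were followed in sorted mouse kidney cells. The members were the rows of the deposited count table whose symbol was Slc9a2, Slc9a3, Slc9a4, Slc9a8 or Slc9a3r1. These are 5 of the 23378 genes in the table, and all 5 passed the filter on low counts. Slc9a2 and Slc9a3 encode NHE2 and NHE3, exchangers of apical membranes. Slc9a4 encodes NHE4, a basolateral exchanger, and Slc9a8 encodes NHE8, found at the proximal brush border and on internal membranes. Slc9a3r1 encodes NHERF1, a scaffold with PDZ domains that ties NHE3 and other membrane proteins to ezrin and the actin cytoskeleton.

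These exchangers move a sodium ion into the cell for a proton moved out, driven by the sodium gradient that the sodium pump maintains. NHE3 carries most of the sodium and bicarbonate reabsorption of the proximal tubule and also serves the thick ascending limb, whereas NHE2 is known from the distal nephron and from the apical membrane of the macula densa. Macula densa cells lie where the thick ascending limb meets its own glomerulus, sense luminal salt and signal to the glomerulus and to renin cells. Sodium proton exchange contributes to their volume and pH regulation.

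All mice were nNosCreERT2-mTmG animals (MD-GFP) on a C57BL/6 background, in which a CreERT2 recombinase placed at the neuronal nitric oxide synthase gene turns the membrane label of macula densa cells from red tdTomato to green GFP. Green cells were sorted from digested cortex as macula densa cells, and the reddest cells were taken as controls for distal tubule and collecting duct epithelium. For 14 days the mice ate control diet, or low salt diet while drinking water held the ACE inhibitor enalapril at 150 mg/L; the latter is called low salt with enalapril. There were 2 macula densa libraries and 4 control-cell libraries on each diet. Green cells are those in which the recombinase had acted, and red cells are every other kidney cell type, of which the brightest were kept. The labels do not say that each library is a separate animal, so p-values measure the spread between these libraries, which may be technical. Each gene was fitted with a spread shared by all 4 groups. Tests between the diets in macula densa cells thus rest partly on the spread among control-cell libraries.

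Total counts per library ran from 4259020 to 14856542, and nuclear protein-coding genes held 780537 to 2328974 of them. A single gene, Gm42418, held 53.5% to 58.9% of the counts in macula densa libraries and 58.9% to 65.0% in control-cell libraries. It is part of the totals used for scaling, except in the alternative without ribosomal RNA and mitochondrial genes. Expression is given as CPM, counts scaled to the library total after adjustment by trimmed means of M values (TMM). The defining gene of the green cells, Nos1, measured 100.4 to 232.2 CPM in the 4 macula densa libraries and at most 0.735 CPM in the 8 control-cell libraries. The control cells did not hold distal epithelium alone, going against their label. All 7 podocyte markers had counts in every control-cell library, and their sum was 42.5 to 1427 CPM under control diet, 138 to 1128 CPM under low salt with enalapril, and 19.7 to 166 CPM in macula densa libraries. The 8 endothelium markers summed to 50.4 to 1660, 272 to 1319 and 14.4 to 179.5 CPM in the same order. Control-cell replicate 4 on control diet was lowest in both sums and highest in the 6 principal cell markers, at 626 CPM, and in the 7 intercalated cell markers, at 382.6 CPM. In bulk samples, fewer cells of a type and less RNA per cell cannot be told apart.

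Slc9a2 and Slc9a4 are neighbours. In GENCODE M21 on the mouse assembly GRCm38, Slc9a4 lies on chromosome 1 from 40580081 to 40630725 and Slc9a2 from 40680574 to 40769273, both on the plus strand. The 49848 bases between them hold 0 annotated genes. Their coding sequences, 2391 bases for Slc9a4 and 2442 for Slc9a2, were 66.9% identical over 2345 aligned bases, the closest pair among the 4 exchangers. The most alike stretch of 60 coding bases, found in exon 4 of 12 of each gene, is printed here because it shows how little separates a read of one paralog from the other at its worst point. Lower case marks the 59 bases that are the same, and the capital is the base that differs.
Slc9a2, chr1:40742687-40742746, plus strand: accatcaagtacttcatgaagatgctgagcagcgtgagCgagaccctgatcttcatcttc
Slc9a4, chr1:40602920-40602979, plus strand: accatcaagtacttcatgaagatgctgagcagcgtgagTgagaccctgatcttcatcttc
The longest run of bases shared exactly by these coding sequences was 38. Of the 2393 windows of 50 bases in the Slc9a2 coding sequence, 0 occurred in a transcript of another gene, and the same held for Slc9a3 and Slc9a8. For Slc9a4, 517 of 2342 windows lay on the opposite strand of the overlapping genes Gm35801 and Gm37435. Gm37435 had 15 counts in all, with 0 to 4 per library. Since no source used here says whether strand was used in counting, the low Slc9a4 counts are uncertain to that extent. Slc9a3r1 shared 14 of 1016 windows with the processed pseudogene Gm37103.

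**Figure D1:**
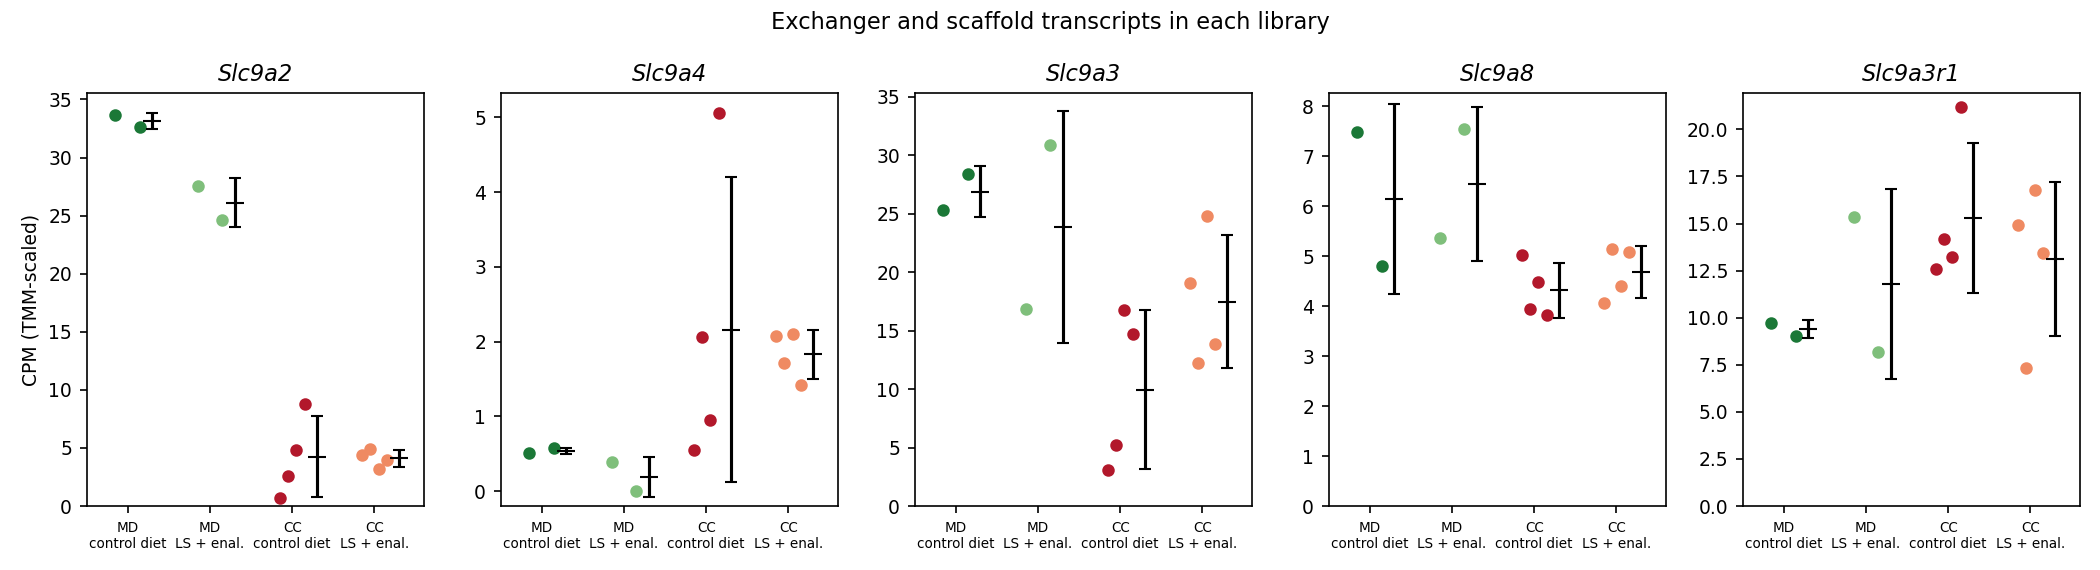
CPM of each member gene (vertical axis, one panel per gene with its own scale) in the macula densa (MD) and control-cell (CC) libraries on control diet or low salt with enalapril (LS + enal.). Points are libraries and the black marks give the mean and standard deviation of each group. The 4 macula densa libraries lie between 24.6 and 33.7 CPM for Slc9a2, above all control-cell libraries, and at or below 0.570 CPM for Slc9a4.

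Slc9a2, the apical exchanger NHE2, was the member with the lowest adjusted p between the cell populations, and was higher in macula densa cells on both diets. On control diet the macula densa libraries held 33.7 and 32.7 CPM, and the control-cell libraries held 0.656, 2.63, 4.86 and 8.78 CPM. On low salt with enalapril the values were 27.6 and 24.6 CPM in macula densa cells against 4.38, 4.90, 3.15 and 3.97 CPM in control cells. There was no overlap on either diet, and control-cell replicate 4 on control diet came closest to the macula densa libraries. Overlap is given here and below as description only. The share of all genes without overlap was not counted, and groups this small can separate by chance.

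The log2 fold change of Slc9a2 was 2.96 ± 0.55 (SE; edgeR adjusted p = 0.00973) under control diet. Under low salt with enalapril it was 2.67 ± 0.57 (SE; edgeR adjusted p = 0.0184). Averaged over both diets it was 2.81 ± 0.40, a 7.04-fold difference (SE on the log2 scale; edgeR adjusted p = 0.000650). Slc9a2 was the only member called on either single diet (1 of 5 on each), where 6.61% of all 14180 genes tested were called on control diet (2.69% higher and 3.92% lower). Of the same genes, 7.27% were called under low salt with enalapril (3.15% higher and 4.13% lower). Scaling by library totals alone moved the split on control diet from 382 higher and 556 lower genes to 542 and 328, and the other from 446 and 585 to 736 and 392. The call within control diet ended without either of its macula densa libraries, with edgeR adjusted p-values of 0.0604 without replicate 1 and 0.0876 without replicate 2, and in a fit of only the groups compared (0.0742). On low salt with enalapril it ended without macula densa replicate 1 (0.0747), macula densa replicate 2 (0.101) or control-cell replicate 4 (0.0543). The averaged call held with every library left out in turn, with log2 fold changes from 2.64 to 3.13.

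Thick ascending limb markers, of which all 8 had counts in every library, differed among the control-cell libraries too. On control diet their sum was 211, 303, 1041 and 1640 CPM in replicates 1 to 4, the same order as Slc9a2. Under low salt with enalapril the order differed: replicate 3 had the highest sum, at 1071 CPM, and the lowest Slc9a2. In macula densa libraries the sum ran from 2485 to 4358 CPM. Slc12a1, the cotransporter NKCC2 that defines the thick ascending limb and macula densa, measured 1769 to 2026 CPM in macula densa cells and 41.8 to 429.7 CPM in control cells. Its averaged log2 fold change was 3.28 ± 0.46 (SE; edgeR adjusted p = 0.000650), and it is among the 8 markers summed. Umod, another of the 8, did not pass, at 0.40 ± 0.61 averaged (SE; edgeR adjusted p = 0.691). It measured 399 to 528 CPM on control diet and 109 to 165 CPM on low salt with enalapril in macula densa cells. In control cells it measured 52.7 to 325 and 35.4 to 418 CPM in the same order.

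The ratio of Slc9a2 to Slc12a1 within each library was chosen after the values were seen. Per 100 CPM of Slc12a1 there were 1.90 and 1.61 CPM of Slc9a2 in the macula densa libraries on control diet and 1.47 and 1.22 on low salt with enalapril. The control-cell libraries had 1.57, 4.43, 2.18 and 2.84 on control diet and 1.99, 2.53, 0.733 and 2.77 on low salt with enalapril. These ratios overlapped between the cell populations on both diets. The part of thick ascending limb cells in the difference of Slc9a2 was not tested.

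Among 6688 genes compared, which averaged 5 CPM or more or were other members, the ones most like Slc9a2 in log2 CPM over the 12 libraries were Casr, Ppp1r1a and Zfp467. Their Pearson correlations with it were 0.97, 0.97 and 0.97 over the 12 libraries, which share the split between macula densa and control cells, and 0.90, 0.89 and 0.90 over the 8 control-cell libraries. Casr encodes the calcium-sensing receptor of the thick ascending limb, and Ppp1r1a, a protein phosphatase inhibitor, was among the thick ascending limb markers used above. Slc12a1 ranked 11 with 0.95 over the 12 libraries and had 0.77 over the 8 control-cell libraries. Umod ranked 1357 with 0.52, and had 0.51 over the control-cell libraries. Casr measured 147.3 to 182.7 CPM in macula densa cells and 6.12 to 59.0 CPM in control cells.

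**Figure D2:**
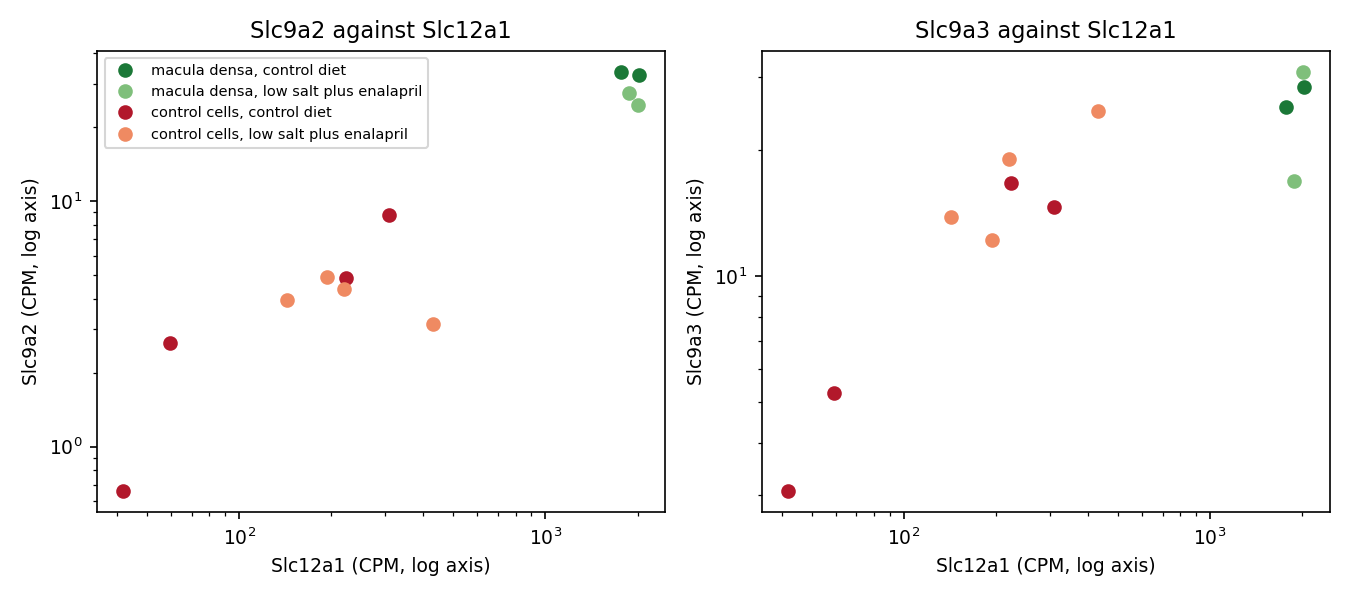
Slc9a2 (left) and Slc9a3 (right) against Slc12a1 in the 12 libraries, all in CPM on log axes. Points are libraries coloured by group. Macula densa libraries stand at the right of both panels, and the control-cell library with the least Slc12a1, at 41.8 CPM, also had the least Slc9a2 and Slc9a3, at 0.656 and 3.06 CPM.

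Slc9a4, the basolateral exchanger NHE4, differed in the opposite direction to its neighbour with macula densa cells the lower. Under control diet the macula densa libraries held 5 and 7 counts, or 0.513 and 0.570 CPM. The control-cell libraries held 0.547, 2.07, 0.952 and 5.06 CPM, so the groups overlapped. On low salt with enalapril the macula densa libraries held 2 and 0 counts and the control-cell libraries held 2.08, 1.71, 2.10 and 1.42 CPM, with no overlap. A count of 0 in the second of these libraries allows up to 0.492 CPM, the worth of 3 counts.

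Summed over libraries, the ratio of macula densa to control cells was 0.253 on control diet (12 against 86 counts, 95% exact interval from 0.126 to 0.466). With low salt and enalapril it was 0.0966 (2 against 58 counts, 95% exact interval from 0.0114 to 0.365). These conditional binomial intervals cover counting error only. In the fit, the log2 fold change averaged over both diets was -2.60 ± 0.73 (SE; edgeR adjusted p = 0.0243). With Slc9a2, this made 2 of 5 members called in that comparison, where 21.3% of all genes tested were called, 7.48% higher (1061) and 13.9% lower (1966), or 1827 and 1450 genes with scaling by library totals alone. Within control diet and within low salt with enalapril the edgeR adjusted p-values were 0.193 and 0.107.

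The averaged call of Slc9a4 ended when either control diet macula densa library was left out (edgeR adjusted p-values of 0.0727 and 0.0801), or replicate 2 of the low salt ones (0.104, at -2.10). When replicate 1 of the low salt ones was left out, the log2 fold change was -4.51, and the remaining library of that group had 0 counts. The averaged call also ended in the fits that blocked libraries by their label numbers, given below. Control-cell replicate 4 on control diet held the most Slc9a4. Of the control-cell libraries it was highest in markers of thick ascending limb and of distal convoluted and connecting tubule. Their sums were 1640 and 641 CPM. It was also highest in principal cell and intercalated cell markers, at 626 and 382.6 CPM. The part of these cell types in the level of Slc9a4 was not tested. Without this library the control diet log2 fold change was -1.12 in place of -1.96. The genes most like Slc9a4 over the 12 libraries were Kcnq1, Adh1 and Cyb5b, with Pearson correlations of 0.94, 0.92 and 0.90, and with 0.87, 0.81 and 0.81 over the 8 control-cell libraries. Kcnq1, a voltage-gated potassium channel, measured 1.97 to 4.41 CPM in macula densa cells and 4.81 to 30.9 CPM in control cells.

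The nearest tested protein-coding gene after Slc9a2 is Mfsd9, 2764 bases away on the opposite strand, at 40772038 to 40790687. Like Slc9a2 it was higher in macula densa cells, with an averaged log2 fold change of 1.77 ± 0.31 (SE; edgeR adjusted p = 0.00254). It measured 6.30 ± 1.22 and 9.83 ± 6.05 CPM (SD, n = 2 each) in macula densa cells, control diet first. In control cells it measured 2.31 ± 1.25 and 2.32 ± 0.265 CPM (SD, n = 4 each). The tested neighbour before Slc9a4, Il18r1, had -2.14 on the same scale and did not pass (edgeR adjusted p = 0.153). Beside the other members, Cep72 and Exoc3 (Slc9a3), B4galt5 and Spata2 (Slc9a8) and Nat9 (Slc9a3r1) did not pass. Cd300a, 258686 bases before Slc9a3r1, had -4.15 (edgeR adjusted p = 0.0273), with group means of at most 1.60 CPM.

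Slc9a3, the apical exchanger NHE3, did not pass between the cell populations in the edgeR fit on either diet. It lies on chromosome 13 from 74121457 to 74169442. On control diet the macula densa libraries held 25.3 and 28.4 CPM and the control-cell libraries 3.06, 5.26, 16.8 and 14.7 CPM. With treatment they held 16.9 and 30.8 CPM against 19.1, 12.2, 24.8 and 13.8 CPM. The groups were separate on control diet and overlapped on low salt with enalapril.

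The log2 fold change of Slc9a3 between the cell populations was 1.43 ± 0.53 (SE) under control diet and 0.45 ± 0.55 (SE) under low salt with enalapril. The edgeR adjusted p-values were 0.122 and 0.646. Averaged over both diets it was 0.94 ± 0.38 (SE; edgeR adjusted p = 0.0983) and did not pass. With scaling by library totals alone it did, at 1.17 and 0.0289. It also passed in the fits that blocked libraries by their label numbers, given below. The macula densa libraries given low salt with enalapril differed, and leaving out replicate 2 turned the value for that treatment to -0.10.

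Relative to Slc12a1, Slc9a3 stood lower in macula densa cells. That direction follows from the denominator, since the averaged log2 fold change was 3.28 for Slc12a1 and 0.94 for Slc9a3. Per 100 CPM of Slc12a1 there were 1.43 and 1.40 CPM of Slc9a3 in macula densa cells on control diet and 0.899 and 1.53 on low salt with enalapril. The control-cell libraries had 7.33, 8.86, 7.51 and 4.74 on control diet and 8.67, 6.31, 5.77 and 9.67 on low salt with enalapril, with no overlap on either diet. This ratio too was chosen after the values were seen and was not tested. NHE3 is best known from the proximal tubule, so proximal markers are given beside it. The sum of 12 proximal tubule markers was 130 to 218 CPM in macula densa cells under control diet and 56.1 to 132 CPM under low salt with enalapril. In control cells it was 69.7 to 164 and 56.7 to 174 CPM. Lrp2, the megalin gene that defines the proximal tubule, measured 12.8 to 59.0 CPM in macula densa cells and 3.57 to 27.5 CPM in control cells. The macula densa library with the least Lrp2, replicate 1 on low salt with enalapril, also had the least Slc9a3 of these libraries, while control-cell replicate 3 of the same treatment had the least Lrp2 and the most Slc9a3 of the control-cell libraries. The part of proximal cells in the level of Slc9a3 was not tested.

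The genes most like Slc9a3 over the 12 libraries were Ehf, Fxyd2 and Hpn, with Pearson correlations of 0.94, 0.94 and 0.93, and with 0.93, 0.97 and 0.91 over the 8 control-cell libraries. Ehf is an epithelial transcription factor, Fxyd2 the gamma subunit of the sodium pump, and Hpn the membrane protease hepsin. The correlation of Slc9a3 with Slc12a1 was 0.85 over the 12 libraries and 0.96 over the 8 control-cell libraries. With Lrp2 it was 0.26 and -0.25 in the same order. Such correlations share library composition and depth and are descriptions.

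Slc9a8, which encodes NHE8, did not pass between the cell populations in the edgeR fit, and its SD relative to its mean was the smallest of the 4 exchangers in control cells on control diet. It lies on chromosome 2 from 167421712 to 167477000. The macula densa libraries held 7.49 and 4.81 CPM on control diet and 5.36 and 7.55 CPM on low salt with enalapril. The control-cell libraries held 5.03, 3.95, 4.48 and 3.82 CPM on control diet and 4.07, 5.14, 4.41 and 5.09 CPM on low salt with enalapril. The cell populations overlapped on control diet and lay next to each other on low salt with enalapril. Averaged over both diets the log2 fold change was 0.49 ± 0.19 (SE; edgeR adjusted p = 0.0930), and it passed with scaling by library totals alone, at 0.68 and 0.0380. The most like genes were Hnrnpa0, Nptn and Insig2, with Pearson correlations of 0.87, 0.86 and 0.86 over the 12 libraries and of 0.45, 0.29 and 0.91 over the 8 control-cell libraries.

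Slc9a3r1, the scaffold NHERF1, did not pass in any of the 6 comparisons. It lies on chromosome 11 from 115163341 to 115181181. The macula densa libraries held 9.75 and 9.04 CPM on control diet and 15.3 and 8.20 CPM on low salt with enalapril. The control-cell libraries held 12.6, 14.2, 13.2 and 21.2 CPM on control diet and 14.9, 7.35, 16.8 and 13.4 CPM on low salt with enalapril. Macula densa cells were below all control-cell libraries on control diet, at -0.70 ± 0.35 on the log2 scale (SE; edgeR adjusted p = 0.243). The groups overlapped on low salt with enalapril, where the value was -0.17 ± 0.35 (SE), and its sign turned with scaling by library totals alone, at 0.08. The most like genes were Arid3a, Gnai1 and Zscan21, with Pearson correlations of 0.90, 0.87 and 0.86 over the 12 libraries and of 0.85, 0.81 and 0.92 over the 8 control-cell libraries.

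**Figure D3:**
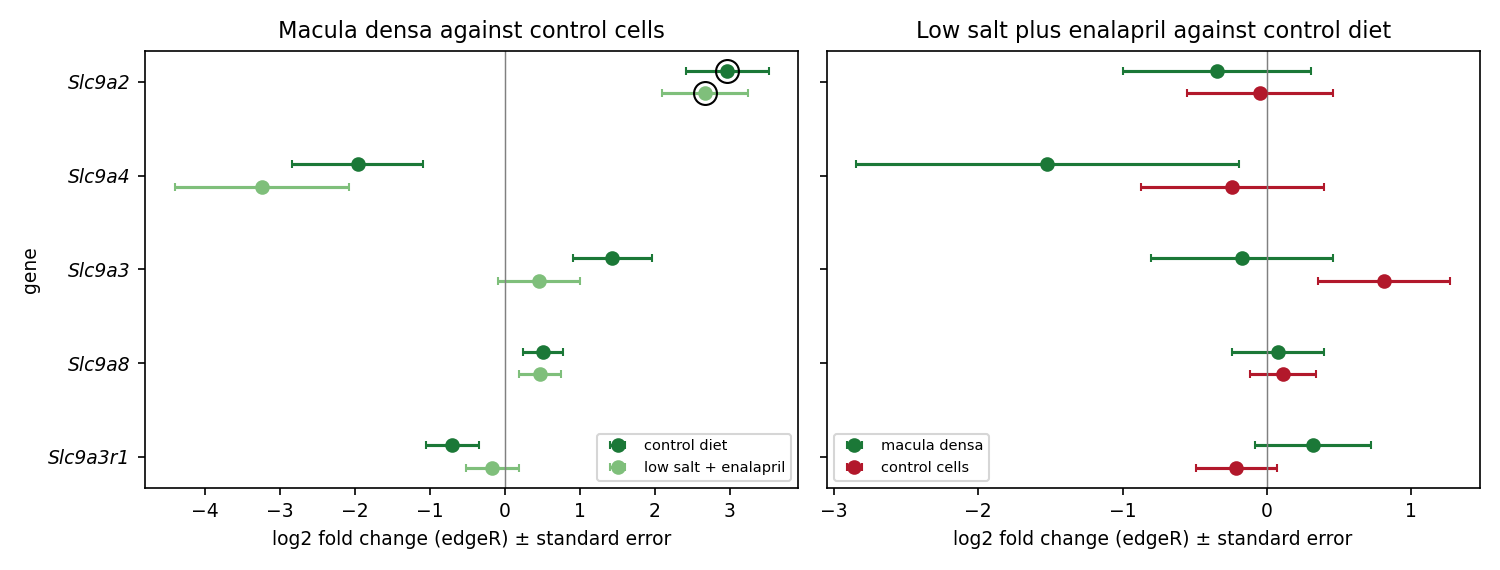
Log2 fold changes (horizontal axis) with standard errors from the edgeR fit for each member, between the cell populations on each diet (left) and between the diets in each cell population (right). Circled points passed an adjusted p of 0.05. Slc9a2 was circled in both cell comparisons, at 2.96 and 2.67, and no member was circled between the diets.

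Per kilobase of annotated exon, the levels of the members could be set against each other. In macula densa cells on control diet, Slc9a3 measured 4.88 ± 0.397, Slc9a3r1 4.88 ± 0.259 and Slc9a2 4.75 ± 0.0995 CPM per kb (SD, n = 2 each), and these neighbours in the order did not differ beyond their spread. Slc9a8 followed at 0.676 ± 0.209 and Slc9a4 at 0.119 ± 0.00888 CPM per kb (SD, n = 2 each). On low salt with enalapril the order was Slc9a3r1 at 6.11 ± 2.62, Slc9a3 at 4.33 ± 1.80, Slc9a2 at 3.74 ± 0.302, Slc9a8 at 0.710 ± 0.170 and Slc9a4 at 0.0420 ± 0.0594 CPM per kb (SD, n = 2 each). The first 3 again lay within their spread of each other.

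In control cells the scaffold stood above the exchangers. On control diet Slc9a3r1 measured 7.95 ± 2.07 and Slc9a3 1.81 ± 1.23 CPM per kb (SD, n = 4 each). Slc9a2, Slc9a8 and Slc9a4 followed at 0.606 ± 0.499, 0.475 ± 0.0607 and 0.473 ± 0.447 CPM per kb (SD, n = 4 each) and did not differ beyond their spread. On low salt with enalapril the values were 6.82 ± 2.13 for Slc9a3r1, 3.18 ± 1.03 for Slc9a3, 0.587 ± 0.106 for Slc9a2, 0.514 ± 0.0574 for Slc9a8 and 0.401 ± 0.0706 CPM per kb for Slc9a4 (SD, n = 4 each). With the longest coding transcript as the length in place of all annotated exons, Slc9a2 came to 6.61 and Slc9a3 to 5.25 CPM per kb in macula densa cells on control diet, so their order depended on the length used. In control cells Slc9a8 then stood above Slc9a2, at 0.955 against 0.843 on control diet. On low salt with enalapril they were 1.035 and 0.817 CPM per kb.

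The make-up of the 4 exchangers was set out per library, with no test. Its shares use the annotated exon lengths and depend on that choice. Of the summed CPM per kb of the 4, Slc9a2 made up 35.4% to 51.4% in the macula densa libraries and 7.10% to 23.1% in the control-cell libraries. Slc9a4 made up at most 1.19% in macula densa libraries and 4.70% to 20.4% in control-cell libraries. Slc9a3 made up 39.9% to 56.3% in macula densa libraries and 42.0% to 76.3% in control-cell libraries, with overlap. Slc9a8 made up 5.04% to 8.33% and 7.71% to 41.8%, the last in control-cell replicate 1 on control diet, where the other exchangers were low.

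**Figure D4:**
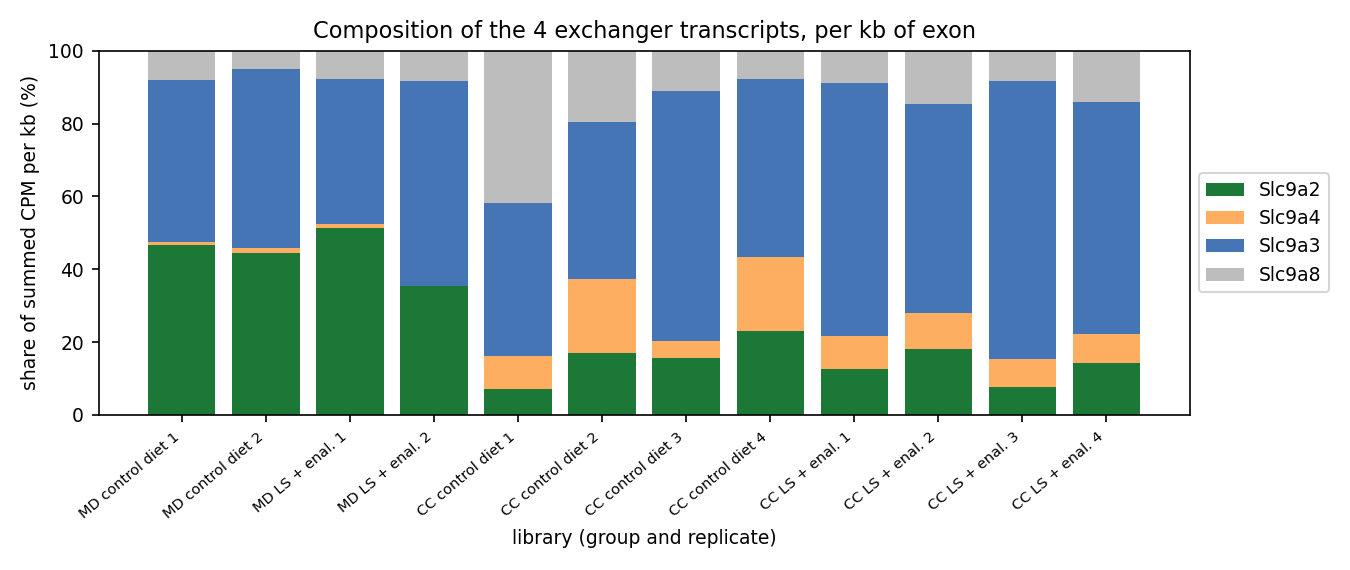
Share of each exchanger in the summed CPM per kb of exon of Slc9a2, Slc9a4, Slc9a3 and Slc9a8 (vertical axis, percent) in each library, named by cell population (MD macula densa, CC control cells), diet and replicate. Slc9a2 takes 35.4% or more of the bar in the 4 macula densa libraries and at most 23.1% in the 8 control-cell libraries.

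Low salt diet with enalapril was compared with control diet in each cell population to see whether transcripts of the exchangers respond. In macula densa cells 0 of 5 members passed, and 0 of 14180 genes did (0%), with 1594 genes at an unadjusted p under 0.05. DESeq2 called 0 members as well and 74 genes in all. The spread in the main fit is shared with control cells. A fit of only the macula densa groups called 105 genes and 0 members, with Slc9a2 at -0.33 (edgeR adjusted p = 0.633). Slc9a2 measured 33.2 ± 0.695 CPM on control diet and 26.1 ± 2.11 CPM with treatment (SD, n = 2 each), a log2 difference of -0.35 ± 0.65 (SE; edgeR adjusted p = 0.880). Slc9a3 measured 26.9 ± 2.19 on control diet and 23.9 ± 9.89 CPM with treatment (SD, n = 2 each), a log2 difference of -0.17 ± 0.63 (SE). Slc9a4 measured 0.542 ± 0.0405 CPM on control diet and 0.192 ± 0.271 CPM with treatment (SD, n = 2 each), from 12 and 2 counts in libraries of unequal depth. Its log2 difference was -1.52 ± 1.32 (SE; edgeR adjusted p = 0.697). The log2 differences of Slc9a8 and Slc9a3r1 were 0.08 and 0.32 with standard errors of 0.32 and 0.40. Macula densa libraries of the 2 diets did not overlap for Slc9a2 and Slc9a4, and overlapped for the other members. Groups of 2 can separate by chance.

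In control cells 0 of 5 members passed, where 0.00705% of all genes tested did. Slc9a3 had the largest value of the 5, with 9.94 ± 6.79 CPM on control diet and 17.5 ± 5.67 CPM with treatment (SD, n = 4 each), a log2 difference of 0.81 ± 0.46 (SE; edgeR adjusted p = 0.893), and the groups overlapped. The values of Slc9a2, Slc9a4, Slc9a8 and Slc9a3r1 were -0.05, -0.24, 0.11 and -0.21, with standard errors of 0.51, 0.63, 0.23 and 0.28. Those of Slc9a2 and Slc9a4 took the other sign, at 0.58 and 0.60, without control-cell replicate 4 on control diet.

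Whether the diet effect differed between macula densa and control cells was tested as an interaction, and 0 of 5 members passed (0% of all genes tested, with 997 at an unadjusted p under 0.05 in edgeR and 13 called by DESeq2). For Slc9a2 it was -0.30 with a standard error of 0.82, for Slc9a3 -0.98 with 0.78, for Slc9a4 -1.28 with 1.47, for Slc9a8 -0.03 with 0.39 and for Slc9a3r1 0.53 with 0.49. The smallest of the edgeR adjusted p-values among them was 0.831, for Slc9a3.

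Genes that work with these exchangers were read from the same fit. Of 7 other exchangers of the family, 5 were in the table and 3 were tested. In macula densa against control cells averaged over both diets, 1 was higher and 0 lower, where 7.48% of all genes tested were higher and 13.9% lower, and their median log2 fold change was 0.61 against -0.06 over all genes. Scaling by library totals alone moved that median of all genes to 0.14. The gene that passed was Slc9a7, an exchanger of the trans-Golgi network. It measured 4.82 and 1.96 CPM in macula densa cells on control diet and 3.64 and 3.77 CPM on low salt with enalapril, against 0.735 to 3.82 CPM in control cells. Its log2 fold change was 1.36 ± 0.38 (SE; edgeR adjusted p = 0.0255). The call ended without macula densa replicate 1 on control diet (0.172), either macula densa library of the other diet (0.0598 and 0.0788) or control-cell replicate 3 on control diet (0.0502).

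Of 12 scaffolds and regulators of exchangers, 10 were tested, of which 3 were lower in macula densa and 0 higher, beside 13.9% and 7.48% of all genes tested, with a median of -0.13. Slc9a3r2, which encodes the related scaffold NHERF2, measured 10.5 ± 5.10 and 2.99 ± 0.172 CPM (SD, n = 2 each) in macula densa cells, control diet first. In control cells it measured 110 ± 72.9 and 53.1 ± 26.1 CPM (SD, n = 4 each). Its log2 fold change was -3.77 ± 0.67 (SE; edgeR adjusted p = 0.00280). Sgk1, a kinase induced by aldosterone and glucocorticoids, had -4.17 ± 0.77 (SE; edgeR adjusted p = 0.00336), or -7.30 when macula densa replicate 1 of low salt with enalapril was left out, the other library of that group having 0 counts. Dpp4, a brush border peptidase that binds NHE3, had -3.03 ± 0.62 (SE; edgeR adjusted p = 0.00578).

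Among control-cell libraries on control diet, Slc9a3r2, Sgk1 and Dpp4 were lowest in the library lowest in podocyte and endothelium markers. In replicate 4, where those sums were 42.5 and 50.4 CPM, Slc9a3r2 stood at 10.5, Sgk1 at 6.30 and Dpp4 at 13.7 CPM, while replicates 1, 2 and 3 held 109 to 181.6, 60.04 to 74.8 and 39.4 to 72.1 CPM. On low salt with enalapril, replicate 1 was lowest in podocyte markers (138 CPM) and replicate 3 in endothelium markers (272 CPM). There replicates 1 to 4 held 35.0, 66.8, 27.7 and 82.9 CPM of Slc9a3r2. Dpp4 stood at 10.5, 59.7, 18.3 and 54.6 CPM, and Sgk1 at 26.9, 56.8, 46.2 and 44.8 CPM. The part of podocytes and endothelium in the difference of these genes was not tested. Ezr, the ezrin that NHERF1 binds, had the highest mean CPM of the list with no adjustment for length and did not pass, at -0.46 ± 0.35 (SE) on the log2 scale.

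Of 12 bicarbonate transporters and carbonic anhydrases, 11 were tested, of which 3 were higher in macula densa and 0 lower, beside 7.48% and 13.9% of all genes tested, with a median of 0.29. Car4, a membrane-bound carbonic anhydrase, measured 16.1 ± 5.54 and 4.64 ± 0.758 CPM (SD, n = 2 each) in macula densa cells, control diet first. In control cells it measured 1.52 ± 0.707 and 0.655 ± 0.504 CPM (SD, n = 4 each), and its log2 fold change was 3.01 ± 0.38 (SE; edgeR adjusted p = 0.000350). Car15, a further membrane-bound carbonic anhydrase and the highest mean CPM of the list, had 2.04 ± 0.49 (SE; edgeR adjusted p = 0.0123, or 0.0557 without macula densa replicate 2 on control diet). Slc4a2, the basolateral chloride bicarbonate exchanger AE2, had 0.62 ± 0.18 (SE; edgeR adjusted p = 0.0280), a call lost in 10 of 21 alternatives, among them the loss of any macula densa library. Between the diets, 0 of the genes of these 3 lists passed in either cell population.

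**Figure D5:**
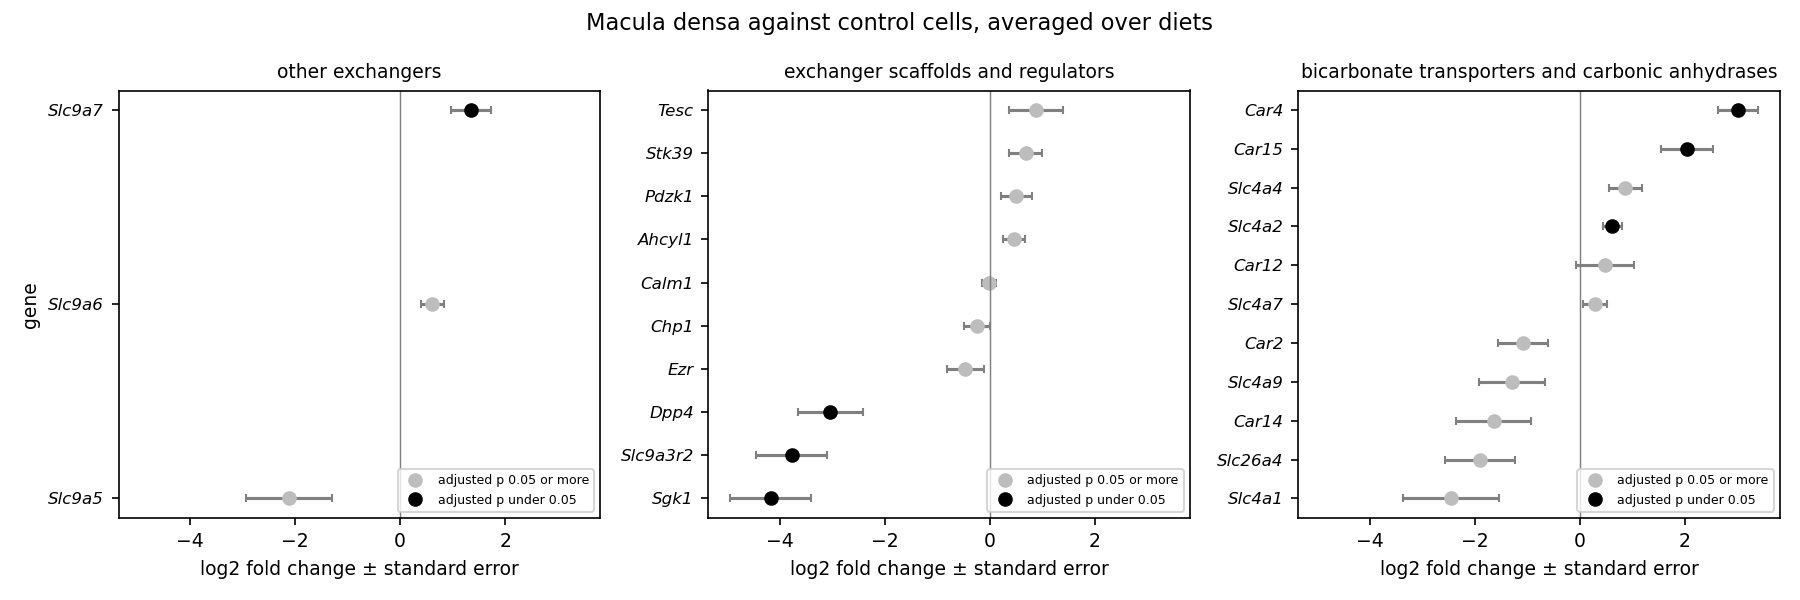
Log2 fold changes with standard errors (horizontal axis) for the tested genes of 3 lists, macula densa against control cells averaged over both diets. Black points passed an adjusted p of 0.05 and grey points did not. Car4 and Car15 stand highest, at 3.01 and 2.04, and Sgk1, Slc9a3r2 and Dpp4 lowest, at -4.17, -3.77 and -3.03.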

How the data were processed

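RNA sequencing counts from 12 libraries of sorted kidney cells were used. The authors deposited a table of estimated counts per gene, not normalized, of which 14.8% of the values were not whole (tolerance 1e-06); these were rounded. STAR 2.61, Partek and the build mm10 are named in the submitters' processing notes, with no roles; counting settings and the use of strand are not given in the sources used here. Of 23378 symbols, 23351 matched GENCODE M21 (GRCm38) in position, all 5 members included. 

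Groups came from the titles. Genes were filtered with filterByExpr (count minimum 10, total minimum 15) of edgeR 4.0.16 in R 4.3.3, leaving 14180, scaled by TMM and fitted with glmQLFit over all 4 groups; p-values from glmQLFTest were Benjamini-Hochberg adjusted over all genes, with a threshold of 0.05. Standard errors were derived from the F statistic. Log2 CPM used a prior count of 2. The fit was also run on simulated counts without differences in cell make-up between libraries, unlike these samples, so that run does not gauge its error here. Total counts ran from 4259020 to 14856542, and 3 counts were worth 0.231 to 0.735 CPM, which limits Slc9a4.

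Named were the members, called genes of 3 lists (at most the 6 largest changes each), the gene with the highest mean CPM of 2 lists, the 3 genes most like each member, its nearest tested protein-coding neighbours, and check markers. A further gene of the exchanger list is not reported here and is left out of its counts and median. Members and lists were chosen with earlier results of these data known. Alternatives were DESeq2 1.42.0 (size factors, Wald test), library totals, other filters, no ribosomal RNA and mitochondrial genes, only the groups compared, replicate blocks (edgeR, or limma 3.58.1 voom) and leaving out each library.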

Additional observations from a re-analysis of the deposited data

Results flagged for a closer look

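Among 44 groups of 4 control-cell libraries (22 genes on 2 diets), 3 held a library far from the others on the log2 CPM scale, where chance gives about 1 in 20, or 2.2. For Sgk1, control-cell replicate 4 on control diet stood at 2.71 against 5.91 to 6.23. For Ezr the same library stood at 7.50 against 6.79 to 6.90. For Lrp2, control-cell replicate 3 on control diet stood at 4.79 against 3.83 to 3.94. No exchanger member held such a library.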

How the results depend on the processing

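Called genes numbered 938 in macula densa against control cells on control diet, 1031 on low salt with enalapril and 3027 averaged over diets. On control diet they were 608 with a mean of at least 5 CPM, 1898 by DESeq2 and 468 with only the groups compared, and on low salt with enalapril 1829 by DESeq2. The averaged count was 1872 with a mean of at least 5 CPM. Between diets in macula densa cells, DESeq2 called 74 and a fit of only the groups compared 105 in place of 0. In control cells these were 64 and 0 in place of 1, and for the difference of the diet effects DESeq2 called 13. Exchanger genes called were 0 on control diet with only the groups compared, and, averaged, 4 with library totals and 1 with a mean of at least 5 CPM. The cause of these changes was not tested.

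The title numbers do not link cell populations, and 4 pairs share a number in the descriptions, which are not said to be animals. Correlations of paired deviations ran from -0.09 to 0.46 for description numbers and from -0.52 to 0.45 for title numbers. The deviations of the 2 macula densa libraries in a group mirror each other, so these correlations cannot decide whether libraries are paired. Neither number was taken to pair the libraries, and fits with each are given as alternatives. With a replicate block by title number the called genes were 378, 396 and 1908, and 0 between diets in control cells. By description number they were 2292 on control diet and 2231 on low salt with enalapril, with 3 for the difference of diet effects and 2 exchangers on control diet. With that number as a random effect (correlation 0.165) they were 654 on low salt with enalapril and 4 between diets in macula densa cells. Averaged, Slc9a3 passed with all 3 blocks (edgeR or limma adjusted p of 0.0367, 0.0062 and 0.0485) and Slc9a4 with none (0.103, 0.0516 and 0.104), while Slc9a2 passed in all 21 alternatives. Slc9a3 also passed on control diet with the description block (edgeR adjusted p of 0.0163), and the averaged call of Sgk1 ended with the random effect (limma adjusted p of 0.0867).

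Leaving out each library in turn gave 122 (without macula densa replicate 2) to 2490 called genes on control diet and 194 (without macula densa replicate 2) to 1894 on low salt with enalapril. Averaged, it gave 1680 (without control diet macula densa replicate 2) to 3968. All 3 highest counts came without control-cell replicate 4 on control diet. The exchangers called were 0 to 1, 0 to 2 and 1 to 2 in the same order. Between diets, 0 to 1 genes were called in macula densa cells, 1 to 5 in control cells and 0 for the difference. Some values of single genes changed sign on the way, and their ranges on the log2 scale follow. On low salt with enalapril, Slc9a3 ran from -0.096 to 0.76 and Slc9a3r1 from -0.74 to 0.17. Between diets in macula densa cells, Slc9a3 ran from -0.73 to 0.13, Slc9a8 from -0.30 to 0.38 and Slc9a3r1 from -0.27 to 0.65. In control cells Slc9a2 ran from -0.39 to 0.58 and Slc9a4 from -0.54 to 0.60. The differences of diet effects ran from -0.92 to 0.013 for Slc9a2, -0.42 to 0.26 for Slc9a8 and -0.069 to 0.85 for Slc9a3r1.

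Some log2 values near 0 changed sign. Slc9a3r1 on low salt with enalapril was 0.080 with library totals, 0.026 with the title block and 0.10 with the description block. Averaged, Ezr was 0.15 with the description block. Between diets, Slc9a8 in macula densa cells was -0.053 with no filter. In control cells Slc9a2 was 0.25 and 0.43, and Slc9a4 0.094 and 0.22, with the title and random blocks. The difference for Slc9a8 was 0.0062 with the random block. With 2 macula densa libraries a group, and 0 to 7 counts of Slc9a4 in each, depth and number limit the diet comparisons.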
